A study of Mus musculus with 12 samples.

Results

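The DNA replication and mitosis genes are a module of 38 genes that cycling cells transcribe in phases. They were taken by symbol from the gene rows of a read-count table, 38 of 23965 rows, and comprise 17 genes of S phase and 21 genes of M phase, each a single row. Every one of the 38 passed the filter on low counts. The RNA came from neurospheres, floating clusters of cultured neural cells, grown from E11.5 ventral midbrain of mice of the CD-1 strain. After 3 days of expansion the spheres received GW3965 together with CT99021, CT99021 alone, GW3965 alone, or, as controls, the DMSO vehicle only, for 5 h in N2 medium. GW3965 is an agonist of the liver X receptors and CT99021, also called CHIR99021, inhibits glycogen synthase kinase 3, which switches on Wnt/beta-catenin signalling. Each of the 4 groups had 3 libraries, numbered 1 to 3 in every group. No allele or transgene is given for any group. The labels do not state that libraries of a group come from separate cultures, so p-values cover only the spread among these libraries, and that spread may be technical.

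Replication origins are licensed when ORC, Cdc6 and Cdt1 load the MCM helicase in G1, and Cdc45 and GINS turn that helicase on in S phase. Transcription of these genes is driven by E2F factors at the G1/S boundary. Genes of mitosis peak later, in G2 and M phase, under the MuvB-B-Myb and FOXM1 complexes and NF-Y. The ventral midbrain at this stage is a proliferating neuroepithelium from which dopaminergic neurons arise.

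The 12 libraries held 9646424 to 21314093 counts over gene rows, with GW3965 replicate 3 the smallest. Lars2 took 7.95% of the counts of CT99021 replicate 1, against 0.0336% to 0.142% in the other 11. All 11 neural progenitor markers had counts in every library, with a summed level of 2712 to 4591 CPM (counts scaled to a common library total adjusted by TMM normalization factors). All 11 neuronal markers did as well, at 1969 to 3562 CPM. The spheres also carried erythroid RNA at 2086 to 12029 CPM over 9 markers and mesenchymal RNA at 241 to 4066 CPM over 10. Erythroid levels went with the replicate number: libraries numbered 3 had 7418 to 12029 CPM, those numbered 1 had 2086 to 3286 CPM. Per the table's header, 3 sequencing index labels are each used by 2 libraries. In bulk RNA, fewer cycling cells and less of an RNA per cell cannot be told apart.

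CHR and E2F words differed in frequency between promoters of the S and M phase members, while the CCAAT box was frequent in both. RefSeq promoters (GRCm38.p6, 250 bases before to 50 after the annotated start) matched 31 of the 38 members, 14 of S and 17 of M phase. No promoter was matched for Mcm4, Gins1, Gins2, Ccna2, Aurkb, Kif20a and Tpx2. The words were searched on both strands, and were chosen from general knowledge after the expression values were known. The cell cycle genes homology region (CHR, TTTGAA or TTCGAA), the element bound by MuvB, was present in 13 of 17 M phase promoters (76.5%). It was present in 3 of 14 S phase promoters (21.4%), and in 21.7% of the 27025 genes with a promoter in the table. An E2F site (TTTCCCGC, TTTCGCGC, TTTGCCGC or TTTGGCGC) was present in 7 of 14 S phase promoters (50%), in 0 of 17 M phase promoters and in 2.6% of all genes. The CCAAT box (CCAAT), bound by NF-Y, was found in 15 of 17 M phase promoters (88.2%), in 11 of 14 S phase promoters (78.6%) and in 41.1% of all genes. E2F words that overlap on opposite strands were counted as separate matches but once per gene, and TTCGAA reads the same on both strands.

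The stretches below are the 180 bases that end just before the annotated start, 5′ to 3′ on the gene's strand, with matched words on either strand in capitals. The first 3 are mitotic genes that passed the test with CT99021 below, as did Cenpf, whose stretch is not shown. The others are MCM helicase subunits with E2F words. Cdc20 lies at chr4:118437344-118437523 on the minus strand, Mki67 at chr7:135716380-135716559 on the minus strand, Nusap1 at chr2:119618118-119618297 on the plus strand, Mcm5 at chr8:75109329-75109508 on the plus strand and Mcm6 at chr1:128359706-128359885 on the minus strand.
Cdc20: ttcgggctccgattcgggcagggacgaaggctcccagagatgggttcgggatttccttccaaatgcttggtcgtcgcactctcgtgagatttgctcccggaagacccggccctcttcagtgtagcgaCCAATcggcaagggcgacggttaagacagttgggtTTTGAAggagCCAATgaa
Mki67: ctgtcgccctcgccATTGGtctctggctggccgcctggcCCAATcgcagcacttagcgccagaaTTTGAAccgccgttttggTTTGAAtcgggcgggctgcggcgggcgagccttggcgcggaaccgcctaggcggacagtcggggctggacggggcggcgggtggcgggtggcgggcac
Nusap1: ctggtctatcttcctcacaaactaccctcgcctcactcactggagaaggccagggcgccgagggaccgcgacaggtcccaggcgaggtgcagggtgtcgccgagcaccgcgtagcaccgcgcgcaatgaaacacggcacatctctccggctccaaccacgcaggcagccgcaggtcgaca
Mcm5: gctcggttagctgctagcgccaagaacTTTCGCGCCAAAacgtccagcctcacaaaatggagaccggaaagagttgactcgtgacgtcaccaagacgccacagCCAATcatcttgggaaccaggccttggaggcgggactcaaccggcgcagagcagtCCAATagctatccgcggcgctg
Mcm6: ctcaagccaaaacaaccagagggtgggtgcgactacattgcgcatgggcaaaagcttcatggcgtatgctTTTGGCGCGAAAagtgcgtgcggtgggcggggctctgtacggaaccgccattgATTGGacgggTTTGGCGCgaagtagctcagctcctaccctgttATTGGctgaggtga
In Cdc20 a CHR begins 18 bases before the start, with 4 bases between it and a CCAAT box. Mki67 has CHR words beginning 116 and 98 bases before the start. Nusap1 holds none of the 3 kinds of word in its 300 bases, nor do Birc5 and the S phase gene Tyms. This says only that these letters are not in those windows. In Mcm5 E2F words on opposite strands overlap and begin 153 and 149 bases before the start, and in Mcm6 they begin 110, 106 and 47 bases before it. The CHR of Cenpf begins at the third base after the start.

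**Figure D1:**
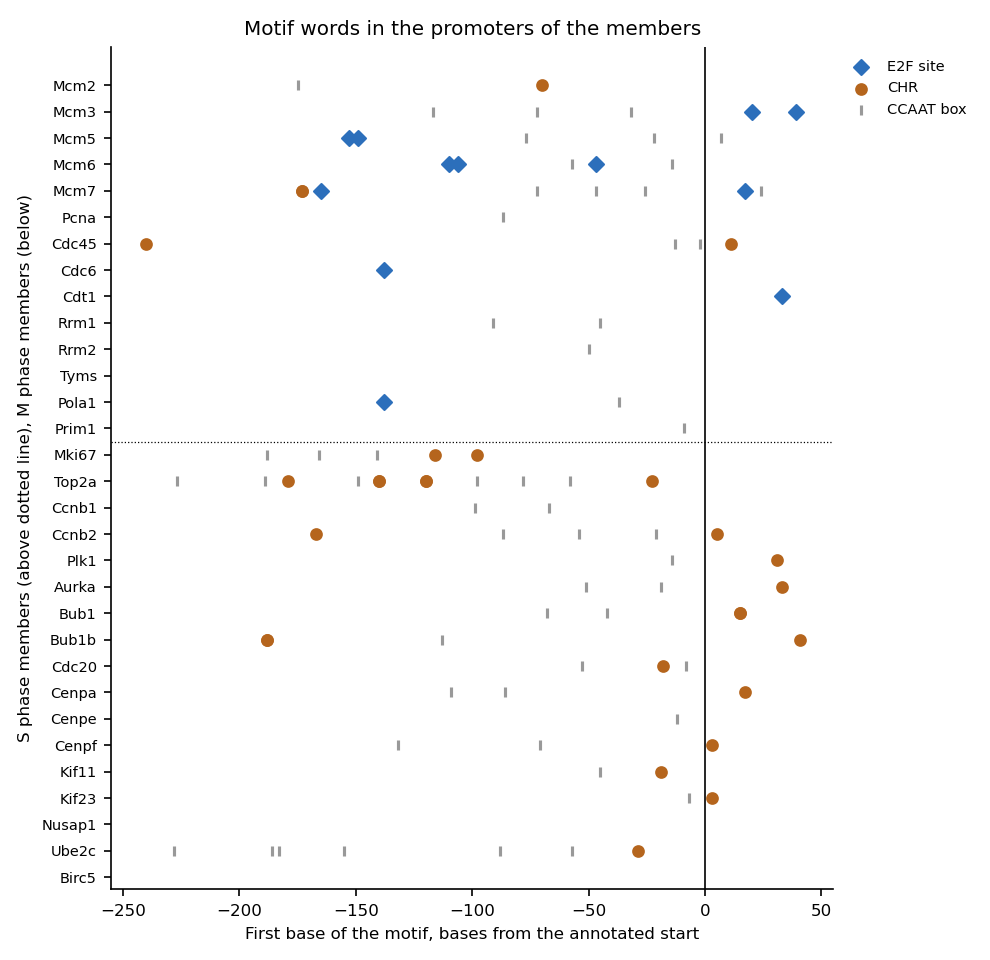
Positions of the motif words in the promoters of the 31 matched members, in bases from the annotated start (horizontal axis), with S phase members above the dotted line and M phase members below it. Diamonds are E2F words, present in 7 S phase and 0 M phase members, circles are CHR words, and grey ticks are CCAAT boxes.

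Per kilobase of transcript, the members spanned a wide range in the controls. Among the S phase genes Pcna, the sliding clamp of the replication fork, was highest at 114 CPM per kb, and the licensing factor Cdc6 was lowest at 3.72 CPM per kb. Among the M phase genes Top2a, the topoisomerase that untangles sister chromatids, was highest at 82.7 CPM per kb. Ube2c, the ubiquitin-conjugating enzyme of the anaphase-promoting complex, was next at 65.1 CPM per kb. Birc5, the survivin subunit of the chromosomal passenger complex, was lowest at 14.8 CPM per kb, close to the kinetochore motor Cenpe at 15.2 CPM per kb. The lowest count of any member in any library was 37, for Gins1.

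In the fit with replicate number as a block, RNA of 4 mitotic genes fell in spheres given CT99021, while no S phase gene passed the test. Without that block no gene of the module passed. The 4 were Cenpf, a large kinetochore protein, Mki67, the Ki-67 coat of mitotic chromosomes, Nusap1, a spindle and microtubule binding protein, and Cdc20, the activator of the anaphase-promoting complex. They fell to between 0.656 and 0.752 of the control level. Of the 21 M phase genes 19 had a fold change below 0, with a median log2 fold change of -0.21, against 0.02 over all genes tested. Of the 17 S phase genes 8 were below 0, with a median of 0.02.

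These calls come from edgeR's quasi-likelihood test, blocked on replicate number, with Benjamini-Hochberg adjustment over 15608 genes, at an adjusted p under 0.05. In that fit 15.8% of all genes were called between CT99021 and control, and 7.59% were lower. The 4 of 21 M phase genes stand against that 7.59%, and the 0 of 17 S phase genes against 15.8%. At an unadjusted p under 0.05 the same fit had 9 M and 1 S phase gene, with 30.8% of all genes. DESeq2 and limma-voom with the block each called 5 M and 0 S phase genes. The shares of all genes that these tools called are not given, here or for the comparisons below. The fit without the block, which was the main design, called no member in any comparison, with 0.0577% of all genes called here. In it Cenpf, Mki67, Nusap1 and Cdc20 had edgeR adjusted p of 0.619, 0.717, 0.472 and 0.569. At an unadjusted p under 0.05 that fit had 1 M and 0 S phase genes, and DESeq2 and limma-voom without the block called 0.

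Cenpf was at 105, 193 and 137 CPM in CT99021 libraries 1, 2 and 3, against 163, 251 and 215 CPM in controls. The CT99021 library was the lower one in every number, although the groups overlapped, with number 2 high in both. The log2 fold change was -0.55 ± 0.08 (SE; edgeR's quasi-likelihood test, adjusted p = 0.00328).

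Mki67 was at 205, 394 and 405 CPM in CT99021 libraries 1, 2 and 3, against 333, 528 and 512 CPM in controls. Again each CT99021 library was below the control of its number and the groups overlapped. The log2 fold change was -0.48 ± 0.12 (SE; edgeR's quasi-likelihood test, adjusted p = 0.03).

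Nusap1 was at 48.4, 64.6 and 61.5 CPM in CT99021 libraries, against 79.2, 113 and 78.8 CPM in controls. All 3 CT99021 values lay below all 3 control values. The log2 fold change was -0.61 ± 0.16 (SE; edgeR's quasi-likelihood test, adjusted p = 0.0312).

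Cdc20 was at 51.1, 66.8 and 55.8 CPM in CT99021 libraries, against 75.2, 87.0 and 69.5 CPM in controls. These groups did not overlap either, and Cdc20 and Nusap1 were the only members of which this held. The share of all genes without overlap was not computed, so this has no background to be read against. The log2 fold change was -0.41 ± 0.11 (SE; edgeR's quasi-likelihood test, adjusted p = 0.037).

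**Figure D2:**
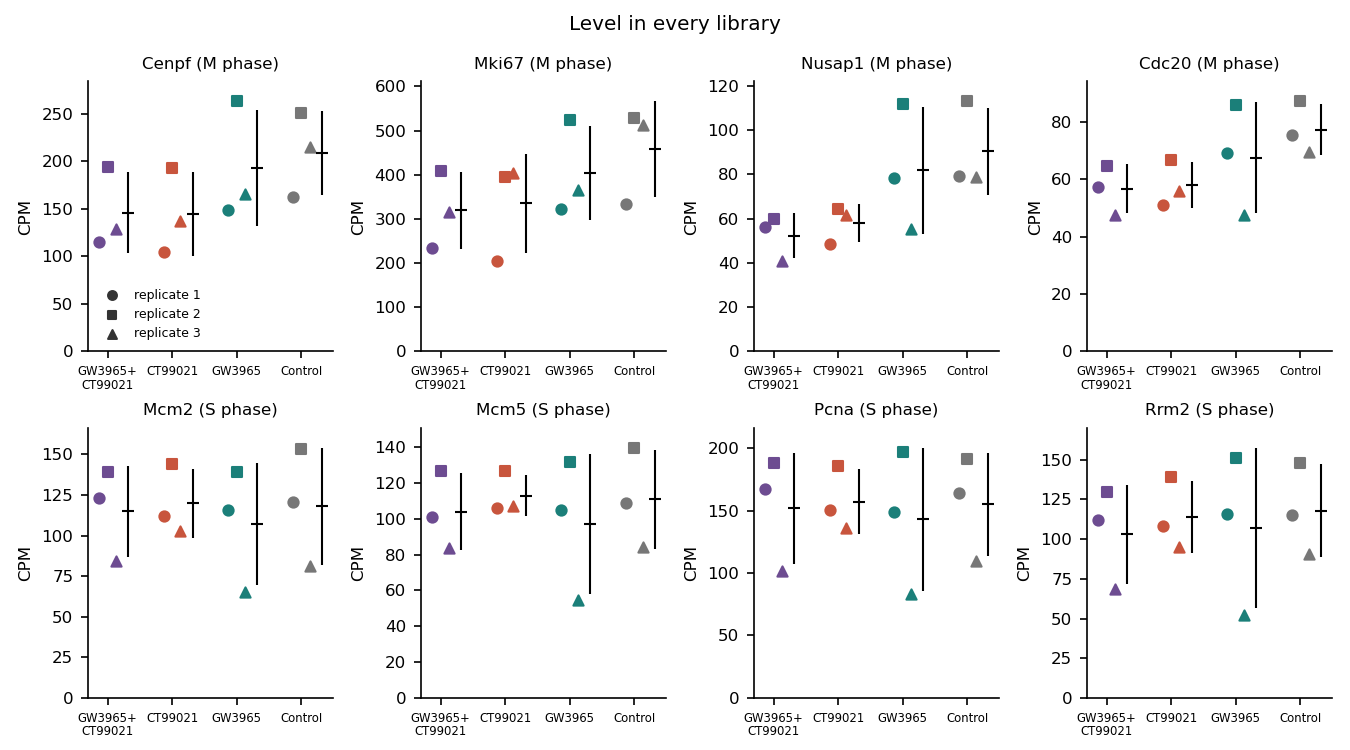
Level in CPM (vertical axes, from 0) of 4 M phase and 4 S phase members in all 12 libraries, by group, with the marker shape giving the replicate number and the black bar the mean ± SD of 3 libraries. Nusap1 and Cdc20 lie lower in all 3 CT99021 libraries than in all 3 controls, while for Mcm2, Mcm5, Pcna and Rrm2 the lowest point is GW3965 replicate 3.

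Other mitotic genes lay below 0 without passing the test. Top2a was at 212, 375 and 378 CPM with CT99021, against 363, 549 and 407 CPM in controls, a log2 fold change of -0.46 ± 0.15 (SE; edgeR's quasi-likelihood test, adjusted p = 0.0664). Its log2 ratio within a number was -0.78 in number 1 and -0.11 in number 3. Ccnb1, which encodes the cyclin B1 that drives mitotic entry, was at 91.9, 129 and 100.1 CPM with CT99021, against 118, 141 and 103 CPM in controls (log2 fold change -0.17 ± 0.10). Plk1, a mitotic kinase, was at 49.4, 75.6 and 57.4 CPM with CT99021, against 69.5, 86.6 and 55.3 CPM in controls (-0.19 ± 0.14). In Plk1 number 3 went the other way from numbers 1 and 2.

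Among the motors and spindle factors, the log2 fold change with CT99021 was -0.25 ± 0.09 for Kif11, the motor that separates spindle poles. It was -0.20 ± 0.11 for Kif20a and -0.21 ± 0.08 for Kif23, both motors of the central spindle and cytokinesis. Tpx2, the activator of Aurora A, was at -0.31 ± 0.11. The cyclins Ccna2 and Ccnb2 had -0.19 ± 0.12 and -0.23 ± 0.13. The checkpoint kinase Bub1 stood at -0.26 ± 0.11, and its relative Bub1b, which encodes BubR1, at -0.11 ± 0.12. Ube2c was at -0.29 ± 0.15 and the kinetochore motor Cenpe at -0.19 ± 0.10. The Aurora kinases Aurka (-0.09 ± 0.10) and Aurkb (0.01 ± 0.14), the centromeric histone Cenpa (-0.05 ± 0.12) and Birc5 (0.06 ± 0.09) lay within 1 standard error of 0. None of these passed the test.

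**Figure D3:**
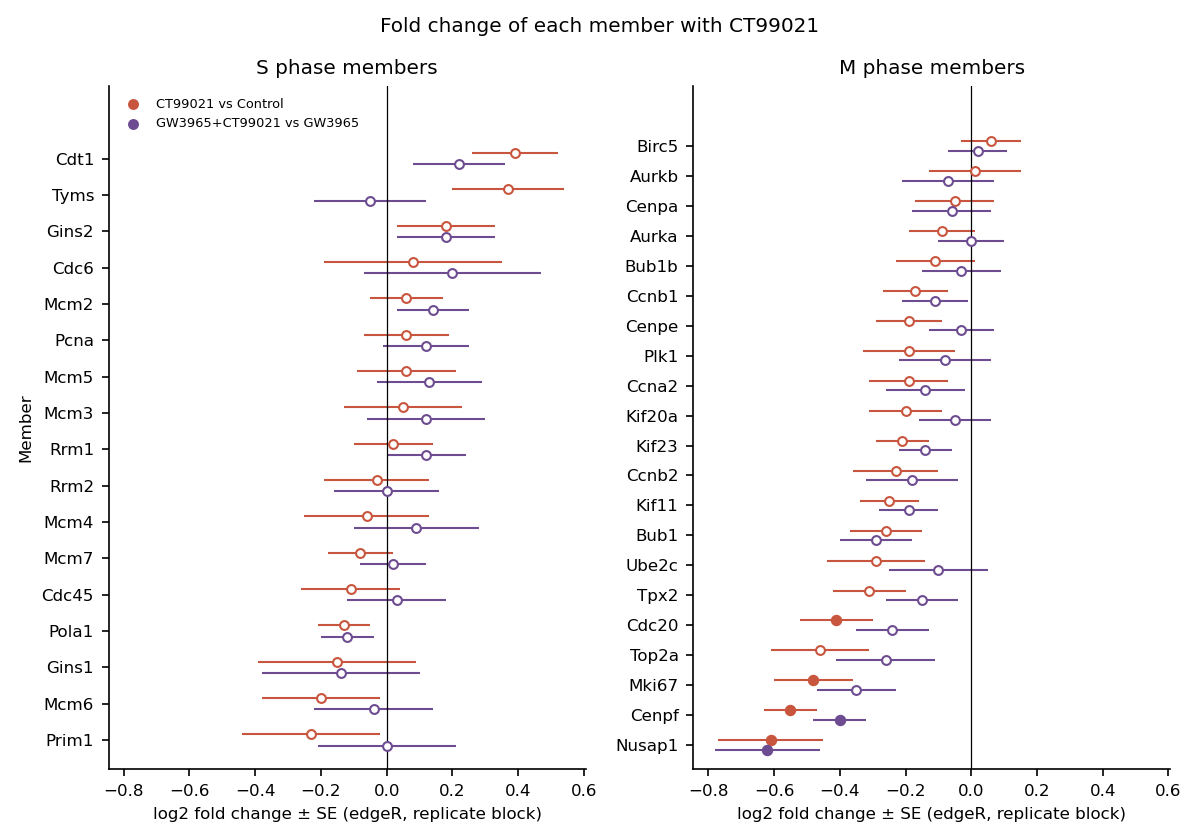
Log2 fold change ± SE of each S phase (left) and M phase (right) member in CT99021 against control and in GW3965+CT99021 against GW3965, from edgeR with the replicate block. Filled points passed the test at an adjusted p under 0.05: 4 and 2 M phase genes and no S phase gene.

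The fold changes of most S phase genes lay within 1 or 2 standard errors of 0. Mcm2, a subunit of the MCM helicase, was at 112, 144 and 103 CPM with CT99021, against 120.5, 153 and 81.0 CPM in controls (log2 fold change 0.06 ± 0.11). Pcna was at 150.4, 186 and 136 CPM, against 164, 191 and 109.9 CPM in controls (0.06 ± 0.13). For both genes the CT99021 library was slightly lower in numbers 1 and 2 and higher in number 3. Mcm5 was at 106, 127 and 107 CPM with CT99021, against 109, 139.6 and 84.4 CPM in controls (0.06 ± 0.15). Rrm2, the regulated subunit of ribonucleotide reductase, was at 108, 139 and 95.0 CPM, against 115, 148 and 90.6 CPM in controls (-0.03 ± 0.16). Cdc6 was at 13.5, 19.9 and 22.0 CPM with CT99021, against 16.8, 22.6 and 14.1 CPM in controls (0.08 ± 0.27). The groups overlapped in all 5 of these genes.

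The other S phase members had log2 fold changes with CT99021 between -0.23 and 0.39. Cdt1, the licensing factor, had the highest, 0.39 ± 0.13 (SE; edgeR's quasi-likelihood test, adjusted p = 0.0765), with 33.7, 39.6 and 32.6 CPM against 27.7, 34.7 and 19.7 CPM in controls. It was higher in all 3 numbers. Tyms, thymidylate synthase, had 0.37 ± 0.17, with a single library apart: CT99021 replicate 1 was at 103 CPM, against 53.2 to 68.8 CPM in the other 11. Mcm3 (0.05 ± 0.18), Mcm4 (-0.06 ± 0.19), Mcm6 (-0.20 ± 0.18) and Mcm7 (-0.08 ± 0.10) are the remaining helicase subunits. The helicase activators had -0.11 ± 0.15 for Cdc45, -0.15 ± 0.24 for Gins1 and 0.18 ± 0.15 for Gins2. Rrm1, the large reductase subunit, was at 0.02 ± 0.12. The polymerase alpha catalytic subunit Pola1 was at -0.13 ± 0.08 and its primase partner Prim1 at -0.23 ± 0.21.

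The replicate numbers did not behave alike. In number 1, 20 of 21 M phase genes were lower with CT99021 than in the control of that number (median log2 ratio -0.35), in number 2 all 21 were (-0.23), and in number 3 15 were (-0.09). Of the 17 S phase genes 15 were lower in number 1 (-0.10), 15 in number 2 (-0.14) and 3 in number 3 (0.18). The summed M phase level was 1656, 2532 and 2240.1 CPM in CT99021 libraries 1, 2 and 3, against 2296, 3205 and 2518 CPM in controls. In the combination it was 1882, 2508 and 1876 CPM, against 2204, 3214 and 1894 CPM with GW3965, so that number 3 was nearly level. The summed S phase level in number 3 was 1322 CPM with CT99021 against 1155 CPM in the control, and 1070.1 CPM in the combination against 810.4 CPM with GW3965. The ratio of the M to the S phase sum, which in number 3 also moves with these higher S phase sums, was 1.21, 1.50 and 1.69 in CT99021 libraries 1, 2 and 3, against 1.60, 1.72 and 2.18 in controls. It was 1.36, 1.51 and 1.75 in the GW3965+CT99021 libraries, against 1.57, 1.77 and 2.34 in the GW3965 libraries.

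**Figure D4:**
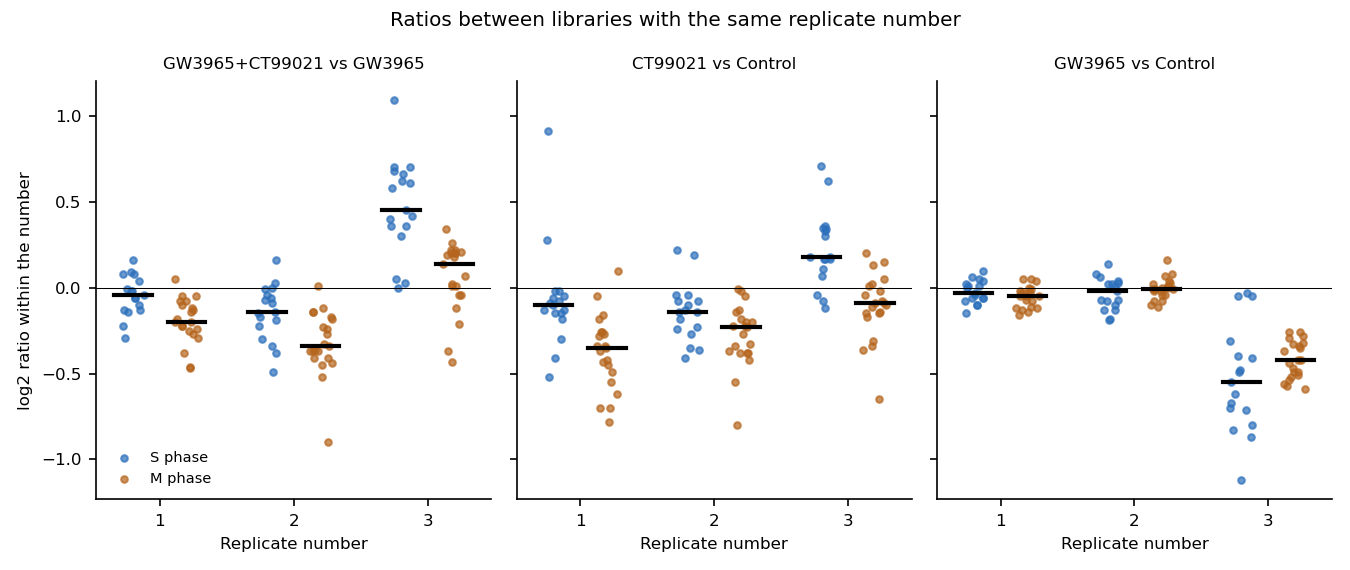
Log2 ratio of CPM + 0.5 between 2 libraries with the same replicate number, 1 point per member, for 3 comparisons, with S phase members in blue, M phase members in brown and a black bar at each median. In GW3965 against control the medians stay between -0.05 and -0.01 in numbers 1 and 2, and are -0.55 (S) and -0.42 (M) in number 3.

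Fitted to the 8 libraries numbered 1 and 2 alone, with the block, CT99021 against control gave 17 of 21 M phase and 3 of 17 S phase genes lower, where 12.4% of all 15496 genes tested were lower. The S phase genes were Mcm4 (-0.23 ± 0.06), Mcm6 (-0.40 ± 0.06) and Prim1 (-0.48 ± 0.12), with edgeR adjusted p of 0.0293, 0.00436 and 0.025. The 4 M phase genes that did not pass were Aurka, Aurkb, Cenpa and Birc5. Top2a had -0.67 ± 0.09 there (edgeR adjusted p = 0.00416). Without number 3 and GW3965+CT99021 replicate 2, a set that an earlier look at these data had put apart, 17 M and 4 S phase genes were lower. The share of all genes called in that smaller fit is not given, so its counts have no background beside them. Mcm3 was the additional S phase gene there, at -0.15 ± 0.04, on the other side of 0 from its 0.05 over all 12 libraries. In numbers 1 and 2 alone 6 of 17 S phase genes changed sign, and the median of all 17 was -0.11.

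With single libraries left out of the fit to all 12, the count of M phase genes lower with CT99021 ran from 1 to 10. It was 1 without CT99021 replicate 1, CT99021 replicate 2 or any 1 of the 3 controls, 8 without GW3965 replicate 3 and 10 without CT99021 replicate 3. The shares of all genes called in these fits are not given, here or for the comparisons below. The range can therefore not be read as particular to the mitotic genes. Cenpf passed in all 20 alternatives with the block, with log2 fold changes of -0.64 to -0.46. Mki67 and Nusap1 passed in 15 of 20 and Cdc20 in 14 of 20, and the same 5 CT99021 and control libraries were among those whose absence ended each call. CT99021 replicate 1, which holds the high Lars2 share and the high Tyms level, also gave the lowest of the 3 M phase median ratios to control (-0.35), and the part of what sets this library apart in those values was not tested. Without it Cenpf had -0.51 ± 0.10 (edgeR adjusted p = 0.0208), and Mki67, Nusap1 and Cdc20 had -0.35 ± 0.13, -0.50 ± 0.19 and -0.32 ± 0.13 and missed the threshold (edgeR adjusted p of 0.152, 0.152 and 0.181).

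The same contrast in the presence of GW3965 shares no library with the one above. Cenpf and Nusap1 fell there as well, and no S phase gene passed. These 2 of 21 M phase genes lay close to the share of all genes called lower there, 8.81%. Of the 21 M phase genes 20 were below 0, with a median log2 fold change of -0.14, against 0.01 over all genes. Of the 17 S phase genes 5 were below 0, with a median of 0.09.

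Cenpf was at 115, 194 and 129 CPM in GW3965+CT99021 libraries, against 149, 263 and 166 CPM in GW3965 libraries (log2 fold change -0.40 ± 0.08, edgeR's quasi-likelihood test, adjusted p = 0.00939). Nusap1 was at 56.2, 59.9 and 40.8 CPM in GW3965+CT99021 libraries, against 78.3, 112 and 55.2 CPM in GW3965 libraries (-0.62 ± 0.16, adjusted p = 0.0244 in edgeR). In both genes the combination was lower in all 3 numbers, and the groups overlapped. Mki67 was at 234, 409 and 316 CPM in the combination, against 322, 525 and 365 CPM with GW3965 (-0.35 ± 0.12, edgeR adjusted p = 0.0735), and Cdc20 at 57.3, 64.7 and 47.6 CPM, against 69.1, 85.9 and 47.5 CPM (-0.24 ± 0.11, edgeR adjusted p = 0.165). Cdc20 in number 3 was level between the groups.

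In this comparison 20.6% of all genes were called by edgeR with the block and 8.81% were lower, against 2 of 21 M and 0 of 17 S phase genes. The unadjusted count at p under 0.05 was 4 M and 0 S phase genes, with 35% of all genes, so the members lay below the share of all genes by that measure. DESeq2 and limma-voom with the block called 3 and 2 M phase genes and 0 S phase genes. Without the block 0.0769% of genes and no member were called. The unadjusted count was then 1 M and 0 S phase genes, and DESeq2 and limma-voom without the block called 0. In numbers 1 and 2 alone 12 M phase genes and Mcm6 were lower, against 12.3% of all genes. The count of M phase genes was 9 without GW3965 replicate 3, 4 without CT99021 replicate 3, 0 without GW3965 replicate 2, and 1 without GW3965 replicate 1, GW3965+CT99021 replicate 2 or GW3965+CT99021 replicate 3.

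Within numbers, 20 of 21 M phase genes were lower in the combination than with GW3965 in numbers 1 and 2 alike (medians -0.20 and -0.34), and 6 in number 3 (0.14). The S phase genes had medians of -0.04, -0.14 and 0.45. In number 3 the S phase genes were thus higher in the combination, at 16 of 17 genes, where GW3965 replicate 3 had a low level of nearly all of them.

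The combination against control shares its controls with CT99021 against control. The same 4 M phase genes passed: Cenpf (-0.54 ± 0.08), Nusap1 (-0.78 ± 0.16), Mki67 (-0.52 ± 0.12) and Cdc20 (-0.45 ± 0.11), with edgeR adjusted p of 0.00276, 0.00964, 0.0167 and 0.0209. All 21 M phase genes were below 0 (median -0.26), and so were 15 of 17 S phase genes (median -0.10), none of which passed. For Cdc20 and Nusap1 the GW3965+CT99021 and control libraries did not overlap. The same held for Ccnb2, Ube2c and the S phase gene Prim1, which did not pass the test. The share of all genes without overlap was not computed here either. Other members near the threshold were Kif23 (-0.23 ± 0.08, edgeR adjusted p = 0.055) and Kif11 (-0.26 ± 0.09, edgeR adjusted p = 0.06). In edgeR with the block 20.3% of all genes were called and 8.95% were lower. At an unadjusted p under 0.05 it had 10 M and 0 S phase genes, with 35.1% of all genes, and DESeq2 and limma-voom with the block called 10 and 5 M phase genes and 0 S phase genes. Without the block 0.115% of genes and no member were called, with 2 M and 0 S phase genes at an unadjusted p under 0.05, and 0 members by DESeq2 or limma-voom. Numbers 1 and 2 alone gave 14 M phase genes and Mcm6 lower, where 1775 of all 15496 genes tested were called lower and 25.1% were called in either direction. The count of M phase genes was 12 without GW3965 replicate 3, 10 without CT99021 replicate 3, and 2 without GW3965+CT99021 replicate 3, Control replicate 1 or Control replicate 3.

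No member passed the test with GW3965 alone. With the block edgeR called 0.0192% of all genes and 0 members between GW3965 and control, with 0 members at an unadjusted p under 0.05, and DESeq2 and limma-voom called 0 members. Without the block 0% of genes were called, with 0 members at an unadjusted p under 0.05 and 0 by DESeq2 or limma-voom. The median log2 fold change was -0.20 for the S and -0.16 for the M phase genes, with 15 of 17 and 21 of 21 below 0. That shift came from number 3. In numbers 1 and 2 the S phase medians were -0.03 and -0.02 and the M phase medians -0.05 and -0.01, whereas in number 3 all 38 genes were lower in GW3965, at medians of -0.55 and -0.42. In numbers 1 and 2 alone edgeR called 0% of all genes lower and 0 members, with log2 fold changes of the members between -0.09 and 0.11.

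GW3965 replicate 3 stood apart from the other 11 libraries in the replication genes. Mcm2 was at 116, 139 and 65.3 CPM in GW3965 libraries, against 120.5, 153 and 81.0 CPM in controls. Mcm5 was at 105, 132 and 54.9 CPM, against 109, 139.6 and 84.4 CPM in controls. Rrm2 was at 116, 151 and 52.0 CPM, against 115, 148 and 90.6 CPM in controls. In all of these replicate 3 held the lowest value of the 12 libraries, while replicates 1 and 2 lay close to their controls. Pcna was at 149, 197 and 83.1 CPM in GW3965 libraries, against 164, 191 and 109.9 CPM in controls, and Cdc6 at 15.8, 23.6 and 7.74 CPM, against 16.8, 22.6 and 14.1 CPM. Gins1 had the widest gap in number 3, a log2 ratio of -1.12. Tyms, Pola1 and Cdt1 were near their control in that number, at -0.05, -0.03 and -0.05. The summed S phase level of GW3965 replicate 3 was 810.4 CPM, against 1070.1 to 1859 CPM in the other 11, and its summed M phase level was 1894 CPM, inside their range of 1656 to 3214 CPM. This library also had the fewest counts, 9559 CPM of erythroid RNA and 1406 CPM over 12 immediate early and stress genes. The stress genes were at 1355 CPM in GW3965+CT99021 replicate 3 and at 407 to 638 CPM in the other 10. The part of these in the low S phase level was not tested.

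In the mitotic genes GW3965 replicate 3 was less apart. Top2a was at 338, 555 and 318 CPM in GW3965 libraries, against 363, 549 and 407 CPM in controls. Ccnb1 was at 115, 149 and 82.0 CPM, against 118, 141 and 103 CPM in controls. Plk1 was at 69.4, 80.4 and 39.7 CPM, against 69.5, 86.6 and 55.3 CPM in controls, and replicate 3 was again the lowest of 12 libraries for Ccnb1 and Plk1, but not for Top2a, which was lowest in CT99021 replicate 1.

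**Figure D5:**
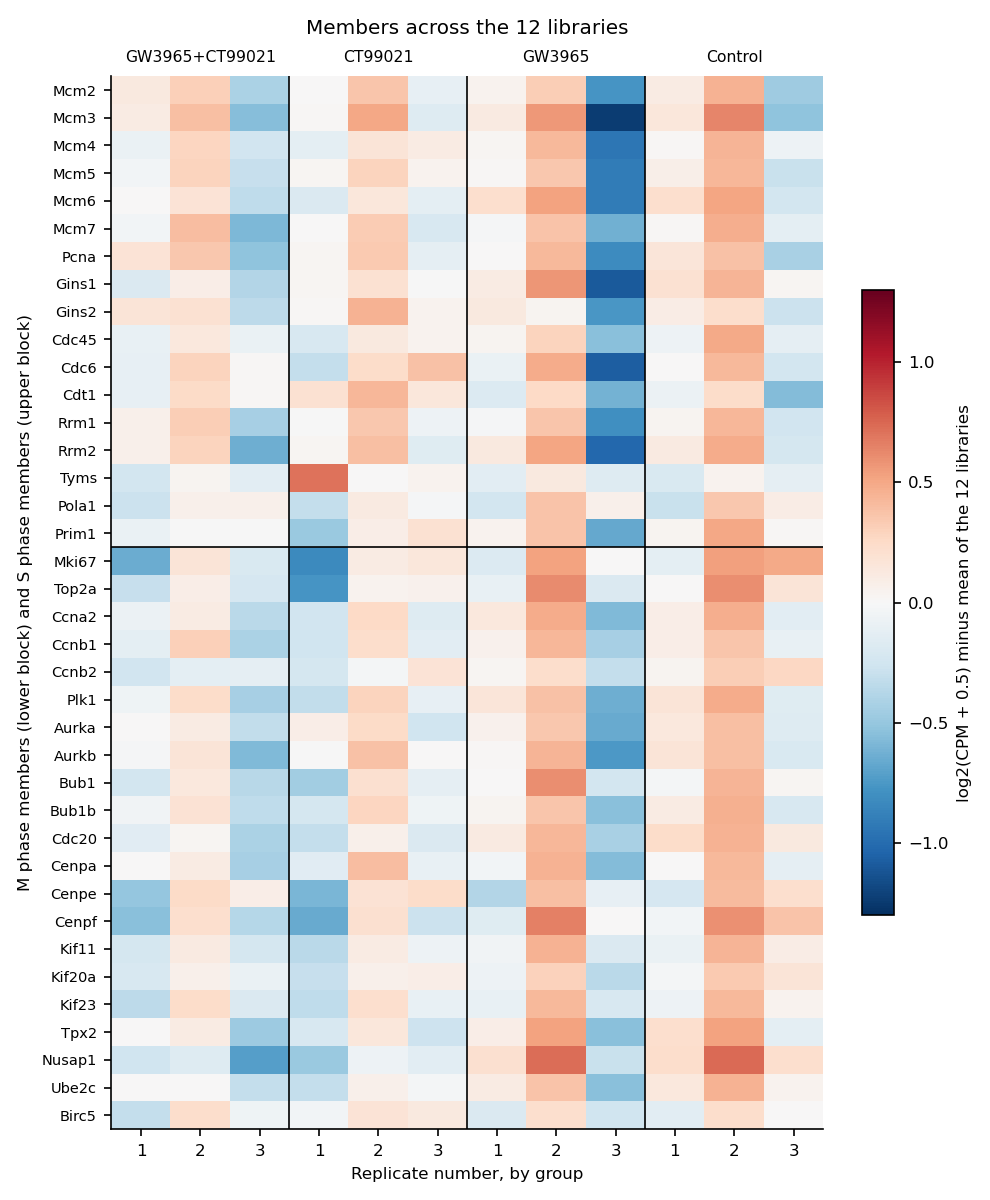
Deviation of log2(CPM + 0.5) from the mean of the 12 libraries (colour scale, red high, blue low) for each member, in rows, with the libraries in columns by group and replicate number. Libraries numbered 2 are mostly red in every group, and the S phase block of GW3965 replicate 3 is the darkest blue.

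No member passed the test when GW3965 was added to CT99021. Between the combination and CT99021, edgeR with the block called 0.0192% of all genes and 0 members, and at an unadjusted p under 0.05 it had 1 S phase gene, Tyms (-0.40 ± 0.17, adjusted p = 0.734), and 0 M phase genes. DESeq2 and limma-voom with the block called 0 members. Without the block 0% of genes were called, with 0 members at an unadjusted p under 0.05 and 0 by DESeq2 or limma-voom. The medians were -0.11 for the S and -0.04 for the M phase genes. The genes that fell with CT99021 lay close to 0 here: Cenpf 0.01 ± 0.08, Mki67 -0.05 ± 0.12, Cdc20 -0.04 ± 0.12 and Nusap1 -0.17 ± 0.16. The interaction of the compounds, which asks whether the effect of CT99021 differs with GW3965 present, was called for 0% of genes with or without the block. Its lowest adjusted p among the members was 0.999 in edgeR with the block, no member had an unadjusted p under 0.05 with or without it, and DESeq2 and limma-voom called 0. The interaction was 0.16 ± 0.12 for Cenpf, 0.13 ± 0.18 for Mki67, 0.17 ± 0.16 for Cdc20 and -0.01 ± 0.23 for Nusap1, and with errors of this size a high p does not show that the effects were the same.

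Genes of the same pathways outside the module are given from lists chosen with earlier results of these data known, for CT99021 against control. The calls are those of edgeR with the block, at an adjusted p under 0.05. Most of the mitotic genes called among them fell, and few replication genes were called. Of 32 other spindle checkpoint and kinetochore genes 5 fell and 0 rose, with a median of -0.16. They included Ndc80 (-0.53 ± 0.11), the core microtubule coupler of the kinetochore, and Cenpk (-0.56 ± 0.15). Of 40 spindle motors and mitotic kinases 5 fell and 1 rose. Aspm (-0.56 ± 0.08), a spindle pole protein whose loss causes microcephaly in people, Nek2 (-0.53 ± 0.08), a centrosomal kinase, and Ect2 (-0.36 ± 0.07), the exchange factor for RhoA in cytokinesis, fell. Cdc25a, the phosphatase that activates cyclin-dependent kinases at G1/S and G2/M, rose (0.40 ± 0.07). Of 27 genes of anaphase and chromosome structure 8 fell and 0 rose, among them the condensin subunits Ncapd3 (-0.68 ± 0.12) and Ncapd2 (-0.37 ± 0.08), the cohesin subunit Rad21 (-0.32 ± 0.06) and securin, Pttg1 (-0.50 ± 0.12). Over all genes 1185 of 15608 fell and 1285 rose.

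Of 18 other licensing and origin firing genes 1 rose, Orc1 (0.53 ± 0.14), a subunit of the origin recognition complex, and 1 fell, Gins4 (-0.54 ± 0.13), a GINS subunit. Of 33 polymerase and replication fork genes 1 rose, Pold2 (0.41 ± 0.08), a subunit of polymerase delta, and 0 fell. Of 15 genes of nucleotide supply 7 rose and 0 fell, with a median of 0.24. They included Shmt1 (0.69 ± 0.07), a serine hydroxymethyltransferase of folate metabolism, Nme1 (0.41 ± 0.08), a nucleoside diphosphate kinase, Cad (0.52 ± 0.10), which begins pyrimidine synthesis, and Ctps (0.37 ± 0.08), CTP synthase. With GW3965 present, in the same fit but with no library shared, 8 of these 15 rose and 0 fell. There 3 of the kinetochore, 9 of the motor and kinase and 6 of the anaphase genes fell and 0, 1 and 1 rose. Over all genes in that comparison 1375 of 15608 fell, 8.81%, and 1841 rose, so the 3 of 32 kinetochore genes lay close to the share of all genes. A further list held core, linker and variant histone genes and Slbp, which is not a histone gene. Of its 14 genes tested the variant H2afv fell with CT99021 (-0.51 ± 0.10) and 0 rose, although the median was 0.49 and 3 of 14 were below 0. That median rests on CT99021 replicate 1: the median log2 ratios within numbers 1, 2 and 3 were 1.20, -0.09 and -0.14. In the combination against GW3965 the median of this list was -0.30. CT99021 replicate 1 is also the library with 7.95% of its counts in Lars2 and the lowest M phase median ratio to control. GW3965 against control called 0 genes in each of these lists.

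Regulators of the module moved in both directions, 5 up and 4 down of 25, where 1285 rose and 1185 fell of all 15608 genes and 15.8% were called. Tfdp2 (-0.74 ± 0.10), a dimer partner of E2F factors, Rbl2 (-0.52 ± 0.08), the p130 pocket protein of the repressive DREAM complex, and Trp53 (-0.29 ± 0.06), the p53 gene, fell. E2f4 (0.35 ± 0.07), the E2F partner of that complex, rose. Cdkn1a, the cyclin-dependent kinase inhibitor p21, was chosen after its values were seen: it had a log2 fold change of 0.93 ± 0.22 and passed the test. Mybl2, the B-Myb gene, also chosen after its values were seen, rose as well (0.35 ± 0.10).

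Markers of cell types moved with CT99021 as well, in a comparison in which 15.8% of all genes were called and 7.59% were lower. Of 11 neural progenitor markers 4 fell and 0 rose: Sox1 (-0.67 ± 0.09), Sox3 (-0.99 ± 0.17), Nes (-0.44 ± 0.11) and Sox2 (-0.32 ± 0.07). The summed level of the 11 was 2712 to 3784 CPM in CT99021 libraries, against 2927 to 4508 CPM in controls, and none was at 0. Of 11 neuronal markers 4 fell and 2 rose, at 2101 to 2978 CPM against 2656 to 3562 CPM in controls. Of 10 mesenchymal and pericyte markers Twist1 rose (0.74 ± 0.18), at 356 to 4066 CPM against 241 to 3120.4 CPM in controls. In the combination 4 of these 10 rose against GW3965, at 961 to 3303 CPM against 255 to 2665 CPM in GW3965 libraries, and 7 of the 11 progenitor markers fell, where 20.6% of all genes were called. Of 10 floor plate and dopaminergic markers tested Lmx1b (-0.58 ± 0.11) and Th (-1.33 ± 0.36) fell with CT99021 and 0 rose. The list summed to 339.7 to 464 CPM, against 321 to 464 CPM in controls. Th itself was near the floor, at a mean of 0.481 CPM with CT99021 against 1.23 CPM in controls. Of 7 endothelial markers tested Kdr fell (-0.60 ± 0.16), with the list at 35.3 to 43.7 CPM against 46.3 to 53.8 CPM in controls. Of 8 microglial markers tested Cx3cr1 fell (-1.57 ± 0.27), also at a low level, a mean of 1.55 CPM against 4.73 CPM in controls. The microglial list was at 23.0 to 35.6 CPM against 26.1 to 47.8 CPM in controls. Erythroid markers had 0 of 9 called, at 2997 to 9258 CPM against 3286 to 12029 CPM in controls. The part of these in the lower mitotic RNA was not tested.

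Transcript length went with the fold changes in a small way that differed between comparisons. The 1159 tested genes longer than 7000 bases had a median log2 fold change of -0.10 with CT99021, against 0.05 for the 4279 of up to 2000 bases, and Cenpf and Mki67 are both longer than 7000 bases. The 3 M phase genes of that length had a median of -0.48 and the 4 of up to 2000 bases, which include Cdc20, a median of -0.26. In the combination against GW3965 the medians of all genes were -0.03 for the long and 0.05 for the short ones, and those of the M phase genes -0.35 and -0.14. In the combination against control the medians of all genes were -0.02 for the long and 0.02 for the short ones, and those of the M phase genes -0.52 and -0.35. The part of length in the fall of Cenpf and Mki67 was not tested.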

How the data were processed

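The authors deposited 1 table of whole-number read counts per gene and repeat family for 12 libraries. The submitters' processing notes name Bowtie and mm9. How reads were counted, with which annotation and strand setting, is not given in the sources used here. The 1217 repeat rows, 0.196% to 0.643% of counts, stayed out of library sizes and tests. CPM and log2 fold changes were computed from the deposited counts. edgeR 4.0.16 (R 4.3.3; TMM factors, filterByExpr, quasi-likelihood F test, all 12 libraries in 1 fit) tested 15608 of 23965 gene rows, with Benjamini-Hochberg adjustment over all of them. The main design had no block. Replicate numbers paired the libraries on evidence from the data: deviations from group means correlated at 0.553 to 0.836 in all 18 same-number pairs, against -0.692 to 0.238 in 36 others. The fit with the number as a block is therefore printed beside it, and fold changes with SE, "rose" and "fell" refer to it. The block took the biological coefficient of variation to 12.7%, against 33.4% without it. Replicates of a group differed by a chi-square per gene of 28.2 to 136, far above sampling noise. The quasi-likelihood test gives no standard error, so SE was derived as the absolute log2 fold change divided by the square root of the F statistic. Ratios within a number used log2(CPM + 0.5).

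The members and all gene lists were chosen with earlier results of these data known. Values in every library are printed for each member past the test and for Mcm2, Mcm5, Pcna, Rrm2, Cdc6, Mki67, Top2a, Ccnb1, Plk1 and Cdc20, and at most 4 members of each other list past the test, by smallest p, are named, beside Cdkn1a and Mybl2. Other members shown by library were chosen after their values were seen. Promoter sequences are RefSeq's. Alternatives were DESeq2 1.42.0, limma-voom (limma 3.58.1), RLE factors, no low-count filter, library totals without Lars2, fits to fewer libraries and each library left out. Scripts were tested on simulated data.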

Additional observations from a re-analysis of the deposited data

How the results depend on the processing

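The replicate block moved the count of M phase genes past the test: 0 without it and 4 with it for CT99021 against control, 0 and 2 for GW3965+CT99021 against GW3965, and 0 and 4 for GW3965+CT99021 against control. The remaining values are from fits with the block, and every called gene was lower unless stated. Apart from numbers 1 and 2, the shares of all genes called in these alternatives are not given, so their counts lack a background. For CT99021 against control the M phase count was 17 in libraries numbered 1 and 2, 17 in the 7 libraries without number 3 and GW3965+CT99021 replicate 2, 8 in the compared groups alone and 1 to 10 with single libraries left out. The S phase count was 3 in numbers 1 and 2, 4 in the 7 libraries and 0 to 1 with single libraries left out, the 1 being a gene that rose without GW3965+CT99021 replicate 3. For GW3965+CT99021 against GW3965 the M phase count was 12, 6 and 0 to 9 in numbers 1 and 2, in the 7 libraries and with single libraries left out. The S phase count was 1, 1 and 0 to 1. For GW3965+CT99021 against control the M phase count was 14, 7 and 2 to 12 in the same order, 10 in DESeq2 and 8 in the compared groups alone, and the S phase count 1, 1 and 0 to 1. The S phase count of 1 without a single library came without GW3965 replicate 3 in both. The cause of these shifts was not tested, beyond the smaller number of libraries in each such fit. No gene past the test in all 12 libraries changed sign. Mcm3, at 0.05 for CT99021 against control, reversed to -0.15 and passed the test in the 7 libraries. In numbers 1 and 2 alone 6 of 17 S phase genes changed sign for CT99021 against control, the median going to -0.11 against 0.02 in all 12, and 7 of 17 for GW3965+CT99021 against GW3965, to -0.12 against 0.09. RLE factors, no low-count filter, totals without Lars2 and limma-voom kept every count within 1.5 times.

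With 3 libraries a group, standard errors of the members' log2 fold changes were 0.08 to 0.27 with the block. The lowest count of a member was 37, for Gins1, and counting error adds to the spread of the least abundant members. Reads of a member and of an antisense or near-identical gene could not be told apart, since no source used here states the strand setting. A fold change below 0 that missed the threshold does not show absence of a change.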
